A study of Mus musculus with 2 samples.

Results

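The genes described here were grouped as tectorial membrane and medial matrix genes: Tecta, Tectb, Otog, Otogl, Otoa, Ceacam16, Epyc and Ecrg4. They were chosen by symbol, and all 8 were found among the 32285 genes listed for both libraries. Cochleae were taken from mouse embryos at E16.5, on a mixed 129/SvEv and C57BL/6N background, and dissociated to single cells. One library was made from 8 pooled wild-type cochleae and the other from 8 pooled Emx2Cre;Ptch1f/f cochleae, called the Ptch1 mutant below. In the mutant, Cre recombinase is made in cells that express Emx2 and acts on the floxed Ptch1 gene, which encodes the receptor that keeps Hedgehog signalling off. Both genotypes have 1 library, so no difference between them has a replicate check and no p-value is given; intervals reflect the number of molecules counted and nothing else.

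The tectorial membrane is an extracellular sheet that lies over the hair bundles of the organ of Corti and is secreted before birth by the floor of the cochlear duct. Its non-collagenous matrix is built from α-tectorin (Tecta) and β-tectorin (Tectb), which carry zona pellucida domains, and from otogelin (Otog) and otogelin-like (Otogl), relatives of gel-forming mucins. Otoancorin (Otoa) sits at the attachment of the membrane to the apical surface of medial cells, and Ceacam16 is a tectorin-binding protein that appears late in tectorial membrane maturation. Epiphycan (Epyc) is a small leucine-rich proteoglycan, and Ecrg4 encodes a secreted precursor peptide. Kölliker's organ, the transient epithelium medial to the sensory cells, is a main source of the membrane.

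In GENCODE vM21 on GRCm38 (mm10), all 8 are protein-coding genes. Tecta lies at chr9:42329619-42399929 on the minus strand and Tectb at chr19:55180733-55196313 on the plus strand. Otog lies at chr7:46240987-46311434 (plus), and its paralog Otogl at chr10:107760531-107912134 (minus). Otoa lies at chr7:121081650-121163097 (plus) and Ceacam16 on the same chromosome at chr7:19852097-19861299 (minus). Epyc lies at chr10:97644068-97682454 (plus), and Ecrg4 at chr1:43730602-43742578 (plus), where that annotation lists it under an earlier clone-based symbol. The RefSeq table of promoters for GRCm38.p6 held 6 of the 8 members, with 8 start sites. The sequences just upstream of the start (for Epyc, the start that adjoins the GENCODE gene), on the gene's strand, are shown for Epyc and Ecrg4, whose levels varied together over sub-clusters, and for Tectb, whose pattern differed from theirs. Capitals mark matches to the motifs described after them.
Epyc, chr10:97643818-97644067, plus strand: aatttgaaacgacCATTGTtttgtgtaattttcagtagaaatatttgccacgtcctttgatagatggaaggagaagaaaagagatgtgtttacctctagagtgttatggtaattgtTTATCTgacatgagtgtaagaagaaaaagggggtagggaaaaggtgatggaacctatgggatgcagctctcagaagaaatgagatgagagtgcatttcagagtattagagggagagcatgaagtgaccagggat
Ecrg4, chr1:43730352-43730601, plus strand: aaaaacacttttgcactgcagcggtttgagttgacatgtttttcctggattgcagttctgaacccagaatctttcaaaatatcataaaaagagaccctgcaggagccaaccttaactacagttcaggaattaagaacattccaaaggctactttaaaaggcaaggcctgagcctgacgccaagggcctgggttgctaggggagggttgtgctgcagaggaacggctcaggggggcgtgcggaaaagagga
Tectb, chr19:55180476-55180725, plus strand: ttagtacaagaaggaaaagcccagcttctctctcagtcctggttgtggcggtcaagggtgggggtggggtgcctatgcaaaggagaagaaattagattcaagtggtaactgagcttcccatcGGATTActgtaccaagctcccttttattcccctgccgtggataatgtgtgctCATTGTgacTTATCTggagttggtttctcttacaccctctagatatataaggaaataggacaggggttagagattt
Motifs of 4 factor families were searched on both strands of windows of this length. The SOX motif ACAATG occurred once in the printed window upstream of Epyc and once upstream of Tectb, and in 10.7% of all 32817 windows. The GATA motif AGATAA also occurred once in each of these, and in 9.99% of all windows. The OTX motif TAATCC was found upstream of Tectb (6.25% of all windows), and the GLI motif GACCACCCA in none of the members' windows (0.225% of all windows). The second Epyc start of the table, chr10:97646853-97647102, held 2 SOX matches and 1 GATA match. The windows of Ecrg4, Tecta, Otog and Otoa held no match. A match is only a description of these letters, since 3′ counts do not measure binding.

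Filtering and doublet removal left 6108 wild-type and 8670 mutant barcodes, of which 1414 and 1520 were epithelial by cluster markers, with a median of 8416.5 and 7322 unique molecular identifiers (UMIs). The matrices held 61130806 (wild type) and 100135532 (mutant) UMIs in all, and 25 barcode sequences occurred in both libraries. Mutant epithelium held more Ptch1 (29.3 against 194 counts per 1000000 UMIs, CPM) and more of the Hedgehog target Gli1 (2.21 against 20.8 CPM). Both are Hedgehog-induced transcripts. The sources used here do not name the floxed Ptch1 exons, so 3′ counts do not check the deletion itself. The libraries differed in purity: of the epithelial barcodes, 68.1% in the wild type but 37.2% in the mutant were mixed, meaning over 5 UMIs per 10000 came from 36 markers of 5 other lineages. Markers summed to 1485 CPM in wild-type and 162 CPM in mutant epithelium for mesenchyme (9 of 9 detected in each), and to 4761 and 226 CPM for erythroid cells (7 of 7 in each). Without mixed barcodes these sums were 65.7 and 68.6 CPM for mesenchyme and 92.8 and 180 CPM for erythroid cells. Values are therefore given with and without mixed barcodes. With bulk sums of a cell class, fewer cells of a type and less RNA per cell cannot be told apart.

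Over the whole epithelium, the tectorins and otogelins were higher in the mutant, and Epyc and Ecrg4 were lower. Tecta stood at 445 CPM in the wild type (95% exact Poisson interval 435 to 456) against 807 CPM in the mutant (794 to 820), and Tectb at 316 and 670 CPM. Otog stood at 83.1 and 157 CPM, Otogl at 47.0 and 78.5 CPM and Otoa at 59.8 and 68.8 CPM. Epyc stood at 959 CPM in the wild type against 246 CPM in the mutant, and Ecrg4 at 2138 and 1449 CPM. All 7 of these pairs were further apart than their counting intervals. Ceacam16 had 0 UMIs in either epithelium, which allows up to 0.180 CPM for the wild type and 0.156 CPM for the mutant. Only 1 wild-type and 3 mutant UMIs of Ceacam16 were counted over all barcodes kept.

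Of the 7 members with at least 10 UMIs, 1 (Tectb, 2.12-fold) was at least 2-fold higher in the mutant epithelium, where 2.51% of all 16198 genes tested were. One (Epyc, 3.90-fold) was at least 2-fold lower, against 5.96% of all genes. The members' median log2 ratio was 0.73, and the median over all genes was 0.05. Without mixed barcodes the Epyc difference was larger and most others smaller. Epyc then stood at 1478 and 248 CPM, 5.97-fold lower in the mutant, and Ecrg4 at 2934 and 1573 CPM, 1.87-fold lower. Tecta stood at 711 and 875 CPM, Tectb at 419 and 680 CPM, and Otog at 114 and 158 CPM. The Otogl intervals then overlapped (77.4 and 83.2 CPM), and Otoa was lower in the mutant (96.4 and 73.3 CPM). Of the 7, 0 were then at least 2-fold higher (3.48% of all genes) and 1 lower (2.69%), with a median of 0.10.

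**Figure D1:**
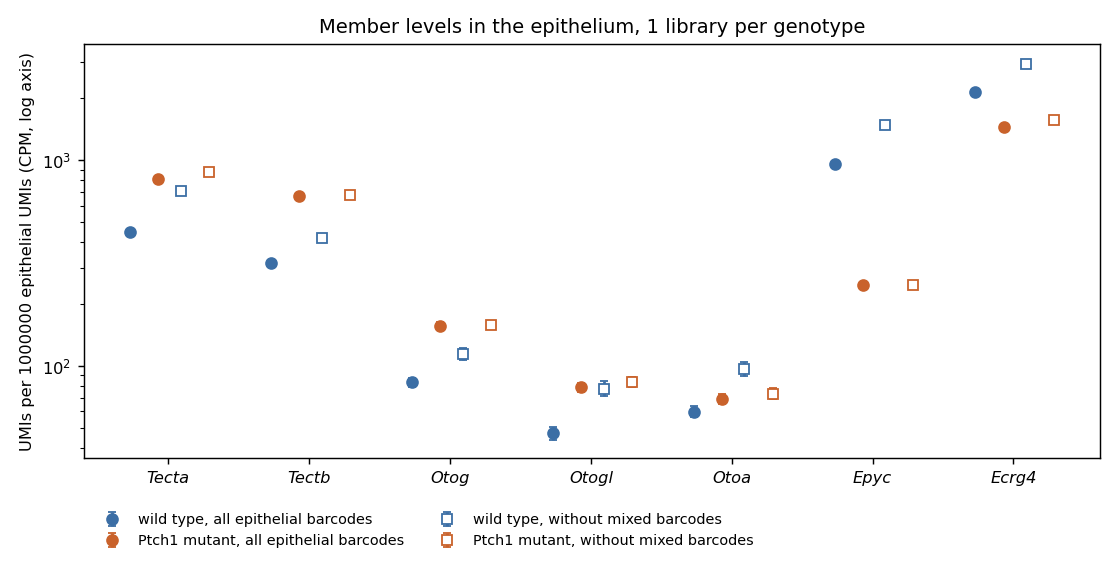
Level of each member in the epithelium, in UMIs per 1000000 epithelial UMIs on a log axis, for 1 wild-type (blue) and 1 Ptch1 mutant (orange) library; filled circles hold all epithelial barcodes, open squares leave out mixed barcodes, and bars are exact Poisson 95% intervals. Epyc stands at 959 and 246 CPM with all barcodes and at 1478 and 248 CPM without the mixed ones, while the Otogl and Otoa pairs draw closer or change order.

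The epithelium was divided into 23 sub-clusters without using the members, and the libraries fell largely into different ones. A Kölliker's organ-like sub-cluster (sub-cluster 1) held 214 wild-type and 2 mutant barcodes. Its leading genes were Crabp1, Calb1 and Adgrg2. This split depended on the clustering resolution. At Leiden resolution 2, the Kölliker's organ-like name also went to sub-clusters of 21 wild-type and 114 mutant and of 16 and 83 barcodes. Others of that name held 190 and 1, 44 and 0, and 59 and 0. A medial edge-like sub-cluster (sub-cluster 2), led by Tmprss4, Foxq1 and Smoc2, held 94 and 223 barcodes. It was the only one with at least 50 barcodes in each library. Its name rests mainly on Smoc2, at 1179 and 847 CPM, against 1.87 and 4.68 CPM in unnamed sub-cluster 8. Of the other markers, Gjb2 was at 90.6 and 147 CPM and Gjb6 at 8.09 and 12.2 CPM. Both were lower than in sub-cluster 8, which held 1113 and 831 CPM of Gjb2, and 75.0 and 102 CPM of Gjb6. Over both libraries together, 3 of the medial edge markers reached 10 CPM in sub-cluster 2, and Fst was not among them. Another 3 sub-clusters held at least 20 barcodes in each: unnamed sub-cluster 3 (34 and 213, led by Ung and Itga8), unnamed sub-cluster 8 (42 and 75, led by B3galt2 and Chst2) and dividing cell-like sub-cluster 14 (25 and 172). Sub-clusters 3 and 8 scored best for the Kölliker's organ markers. Sub-cluster 3 stayed unnamed because none of these was among its top 10 genes, and sub-cluster 8 because medial edge markers outnumbered them there. A further 6 sub-clusters, nearly all wild-type barcodes, stayed unnamed because their top 10 genes held more markers of another lineage than of their best-scoring set. These are called led by other lineages, although some rest on a single marker of that lineage. The only such marker was Col1a1 (mesenchyme) in sub-cluster 4, Matn1 (cartilage) in sub-cluster 5 and Cldn5 (endothelium) in sub-cluster 15. No sub-cluster could be named marginal cell-like: the 1 scoring best for that set (60 wild-type and 1 mutant barcodes) was led by the melanocyte gene Dct.

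**Figure D2:**
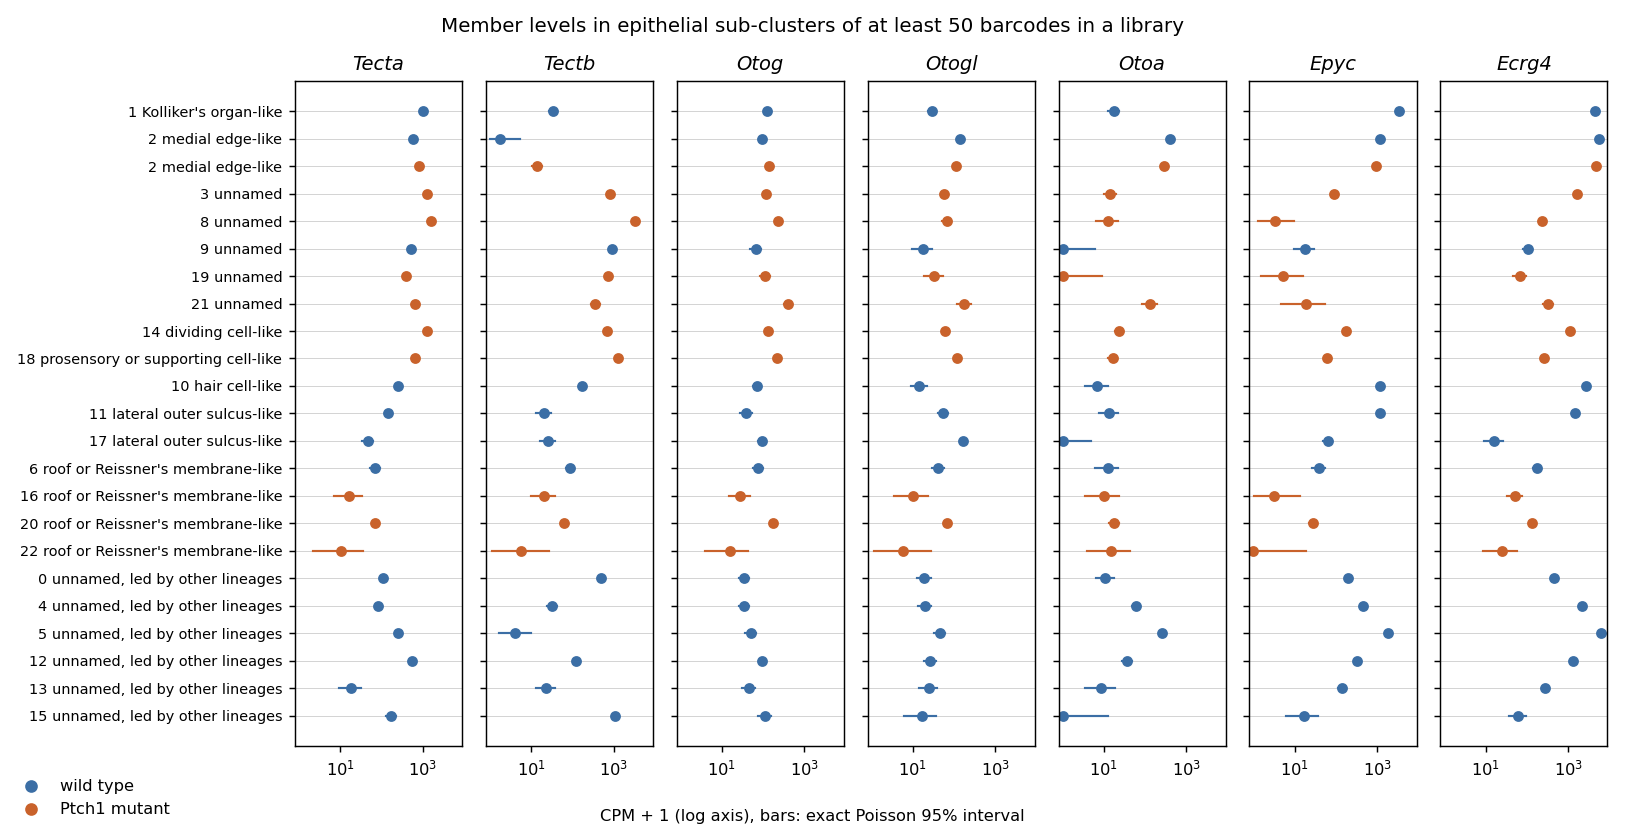
Level of 7 members (CPM + 1, log axis) in each epithelial sub-cluster with at least 50 barcodes in a library, blue for wild type and orange for Ptch1 mutant, with exact Poisson 95% intervals as bars. Otoa stands highest in medial edge-like sub-cluster 2 of both libraries, Epyc in Kölliker's organ-like sub-cluster 1 of the wild type, and Tectb in sub-cluster 8 of the mutant, while Tectb is lowest in sub-cluster 2 of the wild type.

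Among the structural tectorins, Tecta was detected over the medial and sensory floor. Among wild-type sub-clusters of at least 50 barcodes, its level was 995 CPM in Kölliker's organ-like cells, followed by 568 CPM in medial edge-like cells, 538 CPM in erythroid-led sub-cluster 12 and 512 CPM in unnamed sub-cluster 9, led by Matn4 and Car3. Neighbours among these last values had overlapping intervals, and every barcode of sub-clusters 12 and 9 was mixed. The mutant order began with sub-cluster 8 (1568 CPM, 1485 to 1654), then sub-cluster 3 (1294 CPM) and dividing cell-like cells (1275 CPM), whose intervals overlapped. Roof-like cells held 63.5 CPM in the wild type against 61.3 CPM in the mutant, and mesenchyme 9.51 and 9.03 CPM. Lateral outer sulcus-like sub-cluster 17 was not told apart from the roof: it held 46.7 CPM in the wild type (33.8 to 62.9). That interval overlapped the one of wild-type roof-like sub-cluster 6 (70.4 CPM, 53.2 to 91.5). The wild-type roof-like value was lower in unmixed barcodes, as given below.

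Tectb had a narrower pattern. It was low in the Kölliker's organ-like and medial edge-like cells as named here: 33.1 CPM in the former (wild type), and 0.81 CPM (1 UMI) against 13.0 CPM (48 UMIs) in the latter (wild type and mutant). This depended on the naming, since unnamed sub-cluster 8 had more medial edge than Kölliker's organ markers among its top genes. At Leiden resolution 2, a medial edge-like sub-cluster of 108 mutant and 0 wild-type barcodes had Tectb among its top 10 genes. Prosensory or supporting cell-like barcodes held 2959 CPM in the wild type (23 barcodes) against 1279 CPM in the mutant (194 barcodes). The libraries held this class in different sub-clusters: 19 wild-type and 0 mutant barcodes in sub-cluster 7, and 4 and 194 in sub-cluster 18. Of the wild-type sub-clusters with at least 50 barcodes, endothelium-led sub-cluster 15 (1083 CPM) and unnamed sub-cluster 9 (904 CPM) stood highest, with overlapping intervals; all 53 and 68 of their barcodes were mixed, so neither has an unmixed value. In mutant sub-cluster 8, Tectb reached 3361 CPM, 2.96-fold above the 1136 CPM of the wild-type barcodes of that sub-cluster. Top genes of sub-cluster 8 were split at Leiden resolution 2. Slitrk6, Igfbp3 and Chst2 were among those of a prosensory-like sub-cluster of 64 wild-type and 13 mutant barcodes. Nrxn3 and Gjb6 were among those of the sub-cluster of 108 mutant barcodes. Whether sub-cluster 8 held the same cells in both libraries was not tested. Dividing cell-like barcodes went the other way, with 1790 CPM in the wild type against 677 CPM in the mutant. Of the Tectb UMIs of the epithelium, 23.4% in the wild type came from the 19 barcodes of prosensory-like sub-cluster 7. In the mutant, 35.8% came from prosensory-like sub-cluster 18.

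Otog and Otogl varied less than the tectorins. Over wild-type sub-clusters of at least 50 barcodes, Otog ranged from 33.0 to 125 CPM, highest in the Kölliker's organ-like cells, whose interval overlapped the next. In the mutant it was 231 CPM in sub-cluster 8, 221 CPM in prosensory or supporting cell-like and 176 CPM in roof-like sub-cluster 20. Its highest value, 402 CPM (312 to 509), was in unnamed sub-cluster 21, whose 86 barcodes had a median of 1709.5 UMIs and were led by Gm26917 and Lars2. Otogl reached 162 CPM in wild-type lateral outer sulcus-like sub-cluster 17 and 134 CPM in the medial edge-like cells, with overlapping intervals. In wild-type Kölliker's organ-like cells it was 28.1 CPM. In the mutant, Otogl was also highest in sub-cluster 21, at 177 CPM (120 to 253) on 30 UMIs. Mutant prosensory or supporting cell-like and medial edge-like cells followed, at 114 and 107 CPM, and neighbours among these values had overlapping intervals.

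Otoa, the attachment protein, stood highest in the same sub-cluster in both libraries. Medial edge-like cells held 404 CPM in the wild type (369 to 441) against 285 CPM in the mutant (268 to 302). They supplied 49.9% of the Otoa UMIs of the wild-type epithelium and 79.4% of those of the mutant, from 94 of 1414 and 223 of 1520 barcodes. Kölliker's organ-like cells held 40 Otoa UMIs from 214 barcodes, and mutant prosensory or supporting cell-like cells 15.5 CPM. The next mutant value after the medial edge-like cells was 130 CPM, on 22 UMIs, in unnamed shallow sub-cluster 21. The other high wild-type value, 257 CPM, was in unnamed sub-cluster 5, which also held 1864 CPM of Epyc and 6267 CPM of Ecrg4. That sub-cluster scored best for the Kölliker's organ markers but stayed unnamed because the cartilage marker Matn1 was among its top 10 genes. In its 36 unmixed wild-type barcodes, Otoa was 280 CPM and Epyc 1864 CPM. Otoa was itself among the 10 leading genes of the medial edge-like sub-cluster, although it was left out of the sub-clustering.

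Epyc was highest in Kölliker's organ-like cells, at 3358 CPM (3286 to 3432), and these cells supplied 50.7% of the Epyc UMIs of the wild-type epithelium. The mutant library had 2 barcodes in this sub-cluster, but more of this name at the finer resolution given above. Its Epyc came from medial edge-like cells (951 CPM), which supplied 74.3% of the mutant total, and from dividing cell-like cells (171 CPM). Mutant sub-cluster 3 held 91.0 CPM and prosensory or supporting cell-like cells 58.0 CPM. In the wild type, behind unnamed sub-cluster 5, 3 sub-clusters had overlapping intervals at 1177 CPM (medial edge-like), 1169 CPM (hair cell-like) and 1144 CPM (lateral outer sulcus-like sub-cluster 11).

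The hair cell-like value did not hold in unmixed barcodes. Of 123 wild-type hair cell-like barcodes, 15 were unmixed, and in these Epyc was 141 CPM, with UMIs in 1 barcode. Ecrg4 went from 2789 to 34.2 CPM in the same step, Tecta from 258 to 76.1 CPM, and Tectb from 175 to 555 CPM. Epyc was also detected outside the epithelium in the wild type: 39.9 CPM in mesenchyme, 72.2 CPM in neurons, 107 CPM in endothelium and 147 CPM in erythroid cells. The mutant values in those classes were 7.30, 0.61, 0.76 and 0 CPM, the last allowing up to 1.08 CPM. The source of these UMIs was not tested.

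Ecrg4 followed Epyc in part. Behind unnamed sub-cluster 5, its wild-type levels were 5741 CPM in medial edge-like and 4493 CPM in Kölliker's organ-like cells. The mutant medial edge-like cells held 4739 CPM and supplied 62.8% of the mutant epithelium's Ecrg4. Unlike Epyc, Ecrg4 was higher in the mutant in sub-cluster 3 (318 CPM in the wild type, 1598 CPM in the mutant, 5.02-fold) and in dividing cell-like barcodes (247 and 1125 CPM, 4.56-fold). In sub-cluster 8 it was lower in the mutant (566 and 228 CPM). In wild-type lateral outer sulcus-like sub-cluster 17 it was 15.2 CPM, and in roof-like cells it was 149 and 117 CPM.

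Within medial edge-like cells, the libraries were closer to each other than over the epithelium as a whole for Epyc and Ecrg4. Epyc stood at 1177 and 951 CPM, 1.24-fold lower in the mutant (ratio 0.808, counting interval 0.760 to 0.860), and Ecrg4 at 5741 and 4739 CPM, 1.21-fold lower. Otoa was 1.42-fold lower and Otogl, at 134 and 107 CPM, 1.25-fold lower. Tecta was 568 and 807 CPM, 1.42-fold higher in the mutant, and Otog 93.9 and 140 CPM, 1.49-fold higher. Tectb, on 1 and 48 UMIs, was 16.1-fold higher with a counting interval of 2.75 to 648. That was the 1 of 7 members at least 2-fold higher (4.76% of all genes tested), and 0 of 7 were lower (1.83%). The median log2 ratio was -0.28, against 0.06 over all genes.

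In these medial edge-like cells the Cre-driving gene Emx2 had 1 wild-type and 7 mutant UMIs. Ptch1 stood at 46.9 and 98.1 CPM, and Gli1 at 0 and 16 UMIs. In prosensory or supporting cell-like cells, which lay mainly in different sub-clusters in the libraries, Emx2 was 77.3 and 111 CPM and Ptch1 48.6 and 340 CPM. In sub-cluster 8, Emx2 was 3.75 and 21.1 CPM and Ptch1 33.7 and 359 CPM. In sub-cluster 3, Emx2 had 1 and 6 UMIs, and Ptch1 was 44.6 and 135 CPM. Levels of Emx2 and Ptch1 thus did not rank these groups alike. Of the medial edge-like barcodes 77 wild-type and 167 mutant were unmixed, and in these Epyc was 1187 and 889 CPM, Ecrg4 5877 and 4842 CPM, Otoa 421 and 304 CPM, and Tecta 594 and 795 CPM. Each of these 4 kept the direction it had with all medial edge-like barcodes. Without mixed barcodes 1 of the 7 was at least 2-fold higher (4.8% of all genes) and 0 lower (1.78%).

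**Figure D3:**
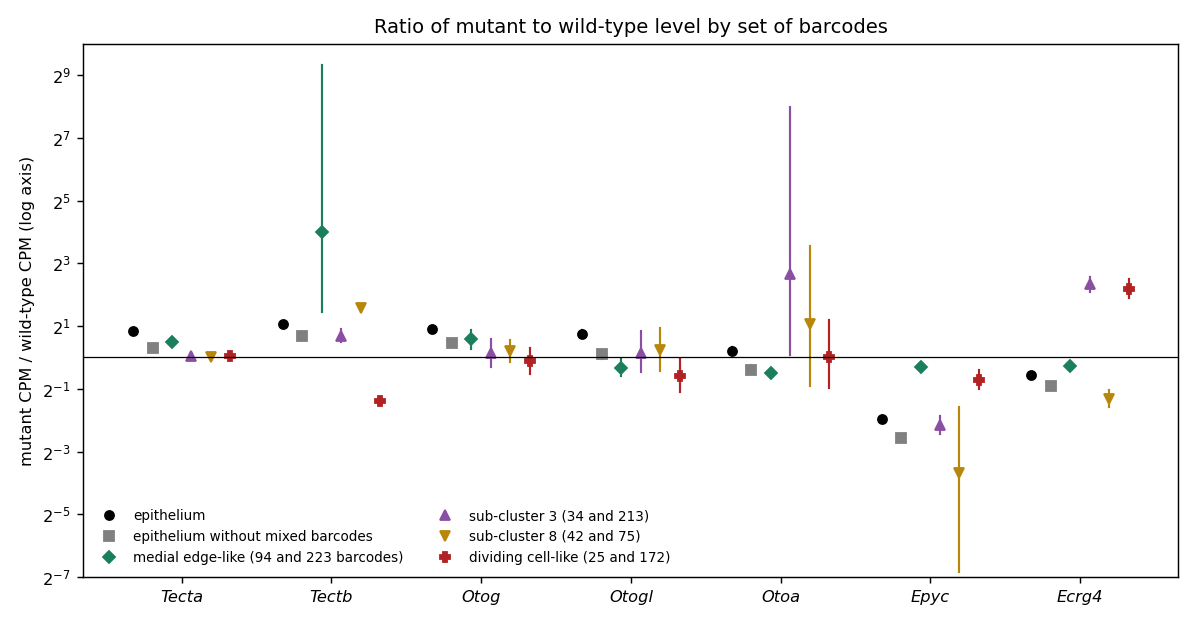
Mutant over wild-type level (ratio of CPM, log axis) of 7 members in 6 sets of barcodes, with exact conditional 95% counting intervals as lines; numbers in the key are wild-type and mutant barcodes. Tecta lies close to 1 in sub-clusters 3, 8 and 14, Epyc lies below 1 in each of the 6 sets, and Ecrg4 and Tectb lie on either side of 1 depending on the set.

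The 3 smaller shared sub-clusters gave different directions for different members. Tecta differed little, at 1248 and 1294 CPM in sub-cluster 3, 1535 and 1568 CPM in sub-cluster 8, and 1240 and 1275 CPM in dividing cell-like barcodes, with each interval of the ratio including 1. Epyc was lower in the mutant in each: 403 and 91.0 CPM, 30.0 and 2.34 CPM (16 and 2 UMIs), and 279 and 171 CPM. The ratio for the 16 and 2 UMIs was 0.0781 (0.00871 to 0.332). Otog intervals of the ratio included 1 in all 3. Otoa in sub-cluster 3 was 1 UMI in the wild type against 36 in the mutant, a ratio of 6.28 (1.06 to 255), and in sub-cluster 8 it was 3 and 10 UMIs, a ratio of 2.08 (0.536 to 11.8). Counts of members at least 2-fold higher and lower were 2 and 1 of 7 in sub-cluster 3 (9.96% and 3.19% of all genes), 1 and 2 in sub-cluster 8 (10.5% and 3.58%), and 1 and 1 in the dividing cell-like barcodes (11.3% and 3.52%).

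In the roof or Reissner's membrane-like cells (105 wild-type and 366 mutant barcodes), none of the 7 differed by 2-fold or more, with 4.85% of all genes tested higher and 8.59% lower. The libraries held this class in different sub-clusters: 90 of the wild-type barcodes were in sub-cluster 6, while the mutant ones were mainly in sub-clusters 16 (210), 20 (84) and 22 (69), with 3 in sub-cluster 6. Otog was the member with the largest CPM difference there, 100 and 149 CPM. Epyc was 30.7 and 22.4 CPM, and Tectb 81.3 and 54.4 CPM. Of the wild-type roof-like barcodes, 19 were unmixed. In these Tecta was 23.6 CPM and Tectb 38.3 CPM, against 86.3 and 78.1 CPM in 170 unmixed mutant barcodes, so that the order of the libraries for both genes was the reverse of that with all barcodes. Epyc, on 2 wild-type UMIs, also reversed, at 5.90 and 24.6 CPM, as did Ecrg4 (70.7 and 129 CPM) and Otog (171 and 156 CPM); the intervals of Epyc and Otog overlapped. Then 3 of the 7, Tecta, Tectb and Epyc, were at least 2-fold higher (10.4% of all genes) and 0 lower (9.15%).

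After thinning to a common depth, shares of barcodes with a UMI gave the same order as the CPM for each of the 7. At 2000 UMIs per barcode, which left out 0 wild-type and 326 mutant epithelial barcodes, Tecta was detected in 40.9% of 1414 wild-type barcodes (Clopper-Pearson 95% interval 38.3 to 43.5) and 60.8% of 1194 mutant barcodes (58.0 to 63.6). Median depths of these barcodes were 8416.5 and 9382.5 UMIs. Tectb was detected in 22.3% and 34.2%, Otog in 14.3% and 22.7%, Otogl in 7.57% and 12.3%, and Otoa in 99 of 1414 and 107 of 1194 barcodes, the last with overlapping intervals. Epyc was detected in 49.7% of wild-type and 18.0% of mutant barcodes, and Ecrg4 in 62.7% and 39.3%. Before thinning, Tecta was in 70.9% and 65.5% of barcodes, an order opposite to that of its CPM. Thinning changed both the depth and, through the 326 barcodes left out, the mix of mutant cells, and their parts were not told apart. Mutant sub-clusters with median depths under 2000 UMIs differed in Tecta: 15.6 CPM in roof-like sub-cluster 16, 403 CPM in sub-cluster 19 and 662 CPM in sub-cluster 21. Mesenchyme, with median depths of 7049 and 8874 UMIs, gave the background: Tecta 1.87% and 1.79%, Tectb 0.554% and 0.934%, Epyc 5.74% and 1.26%, and Ecrg4 10.6% and 4.36%. Otog, Otogl and Otoa were each under 0.5% in mesenchyme. Thinned shares in the medial edge-like cells were 75.5% and 71.0% for Epyc, 96.8% and 95.9% for Ecrg4, and 55.3% and 36.7% for Otoa.

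**Figure D4:**
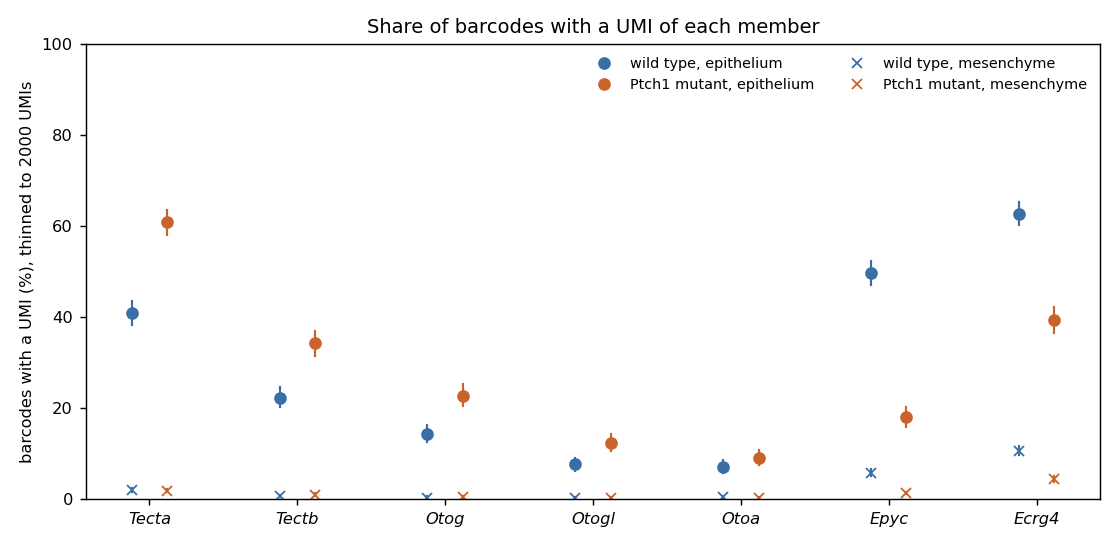
Percent of barcodes with at least 1 UMI of each member after thinning to 2000 UMIs, in epithelium (circles) and mesenchyme (crosses) of the wild-type (blue) and Ptch1 mutant (orange) library, with Clopper-Pearson 95% intervals. Epithelial shares of Tecta are 40.9% and 60.8%, those of Epyc 49.7% and 18.0%, and the mesenchymal shares stay at or under 10.6%.

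Barcodes fell into overlapping sets by the members they held. Among thinned epithelial barcodes with an Epyc UMI, 89.8% in the wild type against 94.0% in the mutant also had an Ecrg4 UMI, against 36.0% and 27.3% of those without Epyc. Otoa and Tectb were seldom found together: of the barcodes with a Tectb UMI, 0.635% (2 of 315) in the wild type and 1.72% (7 of 408) in the mutant had an Otoa UMI. Without Tectb, these shares were 8.83% and 12.7%. Epyc was found in 15.9% of wild-type and 3.19% of mutant barcodes with Tectb, against 59.4% and 25.7% of those without. The same grouping showed across 23 sums of at least 50 barcodes (13 wild type), which share libraries and depth: Pearson's r of log2(CPM + 1) was 0.86 for Epyc and Ecrg4, 0.73 for Otog and Otogl, 0.71 for Ecrg4 and Otoa, and -0.50 for Otoa and Tectb.

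Over the same 23 sums, the genes most like each member among 10698 were found by Pearson's r. For Tecta they were Klhl14 (0.93), Tmod1 (0.92) and Fzd8 (0.91), and for Tectb they were Sox2 (0.91), the prosensory transcription factor, Rorb (0.89) and Gipc2 (0.89). Epyc was closest to Adgrg2 (0.90), the calcium-binding protein gene Calb1 (0.89) and Ccdc85a (0.88). Ecrg4 was closest to Adgrg2 (0.93), Crip2 (0.92) and Gm29157 (0.90). For Otoa the highest values were 0.85 for Plk2, 0.85 for the matrix gene Smoc2 and 0.83 for Stam2. Otog was closest to the chromatin genes Chd7 (0.89) and Kdm6a (0.88) and to Ccdc88c (0.88), and Otogl to Pik3c2a, Nsmaf and Shprh (0.92, 0.92 and 0.91).

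Other genes of the tectorial membrane and of the medial floor were counted as lists. Beside each count stand the shares of all genes given above, 2.51% higher and 5.96% lower for the epithelium and 3.48% and 2.69% without mixed barcodes. A list of 8 genes held 7 collagens of the membrane and Strc, a hair bundle attachment gene with 4 and 0 UMIs that was not tested. Of the 7 collagens, 0 were at least 2-fold higher and 1 lower in mutant epithelium, with a median log2 ratio of -0.55. The lowest was Col9a1, a fibril-associated collagen, at 446 and 214 CPM, and the highest Col9a2, at 983 and 862 CPM. Without mixed barcodes 3 of 7 were lower, with a median of -0.94. Of 11 tested small leucine-rich proteoglycans, the family of Epyc, 5 were lower with a median of -0.83. The lowest was biglycan (Bgn), at 67.1 and 7.44 CPM, and the highest Podn, with 25 wild-type and 28 mutant UMIs. Only 1 of 8 was lower without mixed barcodes, with a median of -0.20. Many genes of this family are mesenchymal products, and the mesenchymal marker sums are given above; their part in the difference was not tested.

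Among 13 medial floor genes, 2 were higher and 3 lower in mutant epithelium, with a median of 0.14, and 3 and 3 without mixed barcodes. The retinoid-binding protein gene Crabp1 was the lowest, at 232 and 33.0 CPM, and the ear patterning factor Pax2 the highest, at 9.63 and 30.1 CPM. Calb1 stood at 255 and 59.8 CPM and Fst, an activin inhibitor, at 137 and 207 CPM; these examples were chosen after their values were seen. Of 6 otoconial and luminal matrix genes 2 were higher and 2 lower, with a median of -0.77; without mixed barcodes 2 of 4 were higher and 1 lower, and the median changed sign to 0.49. Otol1, an otoconial collagen-like gene, was the highest at 49.4 and 119 CPM, and Zpld1 the lowest at 7.12 and 0.42 CPM. Of 3 tested zona pellucida domain genes outside the members 0 were higher and 2 lower, and without mixed barcodes 0 of 2 were either. Of 5 D-domain relatives of the otogelins 0 were higher and 1 lower, and without mixed barcodes 0 and 1 of 3. Among the first, Tgfbr3 had the highest ratio, at 5.45 and 4.58 CPM, and Zpld1 again the lowest. Among the relatives Fcgbp had the highest, at 2.63 and 4.79 CPM, and Bmper the lowest, at 10.1 and 2.24 CPM. Within medial edge-like cells, 0 of the 7 collagens were higher and 0 lower (4.76% and 1.83% of all genes), with a median of -0.10.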

How the data were processed

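Per the labels, cells of 8 cochleae per genotype were made into 1 10x Genomics 3′ library each; the kit version in the sample descriptions differs between the libraries. Values in the deposited matrices are unnormalized counts of UMIs, by gene and barcode. The submitters' processing notes name Cell Ranger 6.0.0 and mm10; per the file headers the mutant matrix came from Cell Ranger 5.0.1 and the wild-type one from 6.0.0. Kit, version and genotype cannot be told apart. The sources used here do not say how the authors called cells: wild-type barcodes start at 3352 UMIs and mutant ones at 500.

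Barcodes with at least 1000 UMIs, 500 genes and at most 10% mitochondrial UMIs passed (6440 wild type, 9373 mutant). Scrublet called 0 doublets in each library and so had not worked; instead the top-scored 0.8% per 1000 barcodes were removed (332 and 703). Clustering ran on the joined libraries (scanpy 1.11.5, igraph 0.11.9; 2000 variable genes, 30 components, 15 neighbours, Leiden resolution 1), without correction between libraries. Clusters were named "-like" from marker sets with at least 3 markers at 10 CPM. A cluster stayed unnamed if its top 10 genes held more markers of another set, if it was shallow, or, for sub-clusters, if none of its own markers was among them. The members and lists were chosen with earlier results of these data known, and the naming rules and the definition of mixed barcodes were settled after the data were seen. Epithelial sub-clusters used no member, marker or listed gene. The first clustering, which decided the epithelial barcodes, did not leave these genes out.

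Counts were summed per library and class as CPM with exact Poisson 95% intervals (scipy 1.17.1); a count of 0 is given the limit of 3 counts. Shares carry Clopper-Pearson intervals. Ratios are log2((CPM mutant + 1)/(CPM wild type + 1)) over genes with at least 10 UMIs, and folds in the text are plain ratios of CPM. The calculation of ratios and intervals was checked on simulated Poisson counts. These held no variation between animals or in cell mix, so the check says nothing about error beyond counting. All 8 members are named; for each with at least 100 epithelial UMIs the 3 most like genes with at least 200 UMIs are named, and of each list the genes with the highest and lowest ratio among those with at least 30 UMIs. Motifs were chosen after the levels were seen. Alternatives covered scaling, pseudocount, low-count filter, mixed barcodes, depth, doublets, resolution and the definition of epithelium.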

Additional observations from a re-analysis of the deposited data

Results flagged for a closer look

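One shallow mutant cluster of 506 barcodes, best matched by the epithelial markers but left unnamed, lies outside the comparisons, and 7 members stood above their mutant mesenchymal level in it. Tecta was 233 CPM there (9.03 in mesenchyme), Tectb 196 CPM (6.14), Otog 40.0 CPM (2.27) and Otogl 17.0 CPM (0.917). Otoa was 31.0 CPM (1.10), Epyc 144 CPM (7.30) and Ecrg4 2076 CPM (26.1). Adding this cluster to the epithelium changed no count of members at 2-fold.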

How the results depend on the processing

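No paired analysis was possible because each genotype has 1 library. Over the epithelium, Epyc was lower in the mutant under all 13 alternatives, and past 2-fold in 12 of them; the exception weighted shared sub-clusters equally, which leaves the medial edge-like cells alone (log2 ratio -0.31). Tecta was higher in all 13 and never past 2-fold (0.30 to 0.90). Leaving out mixed barcodes gave a median log2 ratio of 0.10 with 0 members at least 2-fold higher, a limit of 10 UMIs gave 0.15 and 0, and leaving out sub-clusters led by other lineages gave 0.37 and 0. Equal weighting gave -0.28 and 0 members lower. The planned limit on markers of all non-epithelial lineages left 11 wild-type and 101 mutant barcodes. It gave a median of 0.50, with 3 members higher (11.6% of all genes) and 2 lower (15.7%). Under this limit the log2 ratios of Tectb and Otog reversed to -1.88 and -0.46, and that of Ecrg4 reversed to 1.51. Otogl went to 1.36 and Otoa to 4.92. Otoa had the same sign under 10 of 13. In the roof-like cells without mixed barcodes, where 19 wild-type barcodes remained, Tecta, Tectb and Epyc had log2 ratios of 1.83, 1.01 and 1.89. The cause of these changes was not tested. Ceacam16 was not detectable at this depth, and single-library counting intervals understate the error.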
